A study of Homo sapiens with 8 samples.

Results

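Expression of 36 genes of glycolysis and of the cellular response to low oxygen was followed by poly(A) RNA sequencing in CHP212 cells, a human neuroblastoma line. The genes were chosen by name. They run from glucose uptake through the glycolytic enzymes to lactate export, and include subunits of the hypoxia-inducible factors (HIF), their prolyl hydroxylases and well-known HIF targets. All 36 were found among the 25369 genes of the count table, and 35 of them had enough reads to be tested, as had 15879 genes in all. The remaining member, CA9, a carbonic anhydrase widely used as a hypoxia marker, had 4 and 2 reads with DMSO and 3 and 1 with Nutlin-3a in WT cells, against 0 and 2 with DMSO and 1 and 2 with Nutlin-3a in KO cells. Cells were unmodified (WT) or carried a knockout of FAM193A (KO), and each genotype was given DMSO, the vehicle, at 0.2% or Nutlin-3a at 10 uM for 12 h. The groups are named by genotype and treatment (WT DMSO for example), and each of the 4 holds 2 libraries from independent biological replicates. No group is labelled as grown in low oxygen. A single KO population is named in the labels, so that loss of FAM193A and any other property of that population cannot be told apart, and a p value between genotypes does not cover the spread between KO populations.

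Glycolysis splits glucose into pyruvate in the cytosol and yields ATP without oxygen. Tumour cells often keep it active in the presence of oxygen and export the pyruvate as lactate. When oxygen falls, the prolyl hydroxylases stop marking the HIF alpha subunits for destruction, and the alpha subunits, HIF-1 alpha and HIF-2 alpha, pair with ARNT and switch on glucose transporters, glycolytic enzymes and other targets. Nutlin-3a blocks the binding of p53 to MDM2, the ligase that keeps p53 low, and p53 is known to restrain glycolysis at several steps.

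Levels are given as CPM, read counts scaled to library depth and composition, with replicate 1 before replicate 2. Fold changes are on the log2 scale, each with its standard error (SE), and p values were adjusted over all tested genes, with a threshold of 0.05. Levels of different genes are compared only in RPKM, which also accounts for gene length. Libraries held 28390405 to 38010075 reads. Against their replicate, 22 genes in WT DMSO replicate 2, 51 in WT Nutlin-3a replicate 1 and 21 in KO Nutlin-3a replicate 2 stood over 5-fold higher with at least 20 reads, compared with 0 to 4 genes in the other libraries. None of the 36 members was among them, and the largest ratio between replicates of a tested member was 1.306, for PFKFB4 in WT DMSO cells. FAM193A itself was still read in every KO library, at 34.8 and 32.2 CPM with DMSO and 42.0 and 38.1 with Nutlin-3a, against 44.1 and 40.0 and 50.4 and 44.5 in the same order in WT cells. The mRNA level therefore does not by itself check the genotype labels. All 12 neuroblastoma markers had reads in every group, and their summed level was 4957 to 4989 CPM with DMSO and 3295 to 3455 with Nutlin-3a in WT cells, against 4600 to 4673 and 4003 to 4194 in KO cells. MYCN made up the largest part of this sum in every group. In WT cells MYCN stood at 3382 and 3348 CPM with DMSO and at 2108 and 2010 with Nutlin-3a. In KO cells it stood at 2434 and 2471 with DMSO and at 2005 and 1898 with Nutlin-3a. The markers of catecholamine synthesis and secretory granules differed in direction between genotypes. TH, the first enzyme of catecholamine synthesis, stood at 477 and 480 CPM with DMSO and 245 and 228 with Nutlin-3a in WT cells, against 9.70 to 12.9 over the KO libraries. DBH, a later enzyme of that synthesis, and the granule protein CHGA stayed under 1 CPM in the WT libraries and stood at 27.9 to 35.6 and 19.9 to 32.1 in the KO libraries, while the granule protein CHGB stayed under 1 CPM in all 8. The genotypes differed in this list, with 8 markers higher and 4 lower in the KO DMSO group than in the WT DMSO group. These are 66.7% and 33.3% of the list, beside 31.4% and 30.1% of all tested genes. Of 27 markers of other lineages, 22 to 25 had reads per group, with a summed level of 4184 to 4314, 5124 to 5172, 4221 to 4489 and 4961 to 5274 CPM in the same order of groups, mostly from COL1A1, KRT8, KRT18 and LUM. KRT1 and CD3E had 0 reads in all 8 libraries. The part of these marker shifts in the results was not tested.

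The 36 genes together took 1.44 and 1.42% of all reads with DMSO and 1.27 and 1.23% with Nutlin-3a in WT cells, against 1.08 and 1.07% and then 0.969 and 0.986% in KO cells. The share was thus highest in WT DMSO and lowest in KO Nutlin-3a cells, with no overlap between groups. In bulk RNA, fewer expressing cells and less RNA per cell cannot be told apart.

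In WT cells, Nutlin-3a lowered 9 of the 15 glycolytic enzymes (60%) and raised both glucose transporters, the HIF-2 alpha gene EPAS1 and the stress gene NDRG1. The calls of GAPDH and PKM, 2 of those 9 enzymes, were lost when single libraries were left out, GAPDH at -0.15 to -0.06 (adjusted p from 0.0517 to 0.319) and PKM at -0.15 and -0.10 (adjusted p from 0.0677 to 0.197). Of the 35 tested members, 12 (34.3%) rose and 14 (40%) fell, where 29.4% of all tested genes rose and 29.2% fell. Past 2-fold, EPAS1 and NDRG1 rose, which is 5.71% of the members, where 8.3% of all tested genes rose that far. In KO cells fewer members rose, and the glucose transporters did not pass the test. There, 7 members (20%) rose and 14 (40%) fell, against 18.1% and 20.6% of all tested genes, and past 2-fold EPAS1 alone rose (2.86%, against 4.26% of all tested genes). The median log2 fold change of the members was 0.05 in WT and -0.07 in KO cells, beside 0.02 and -0.01 over all tested genes.

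KO cells had lower levels of most members than WT cells, with the lactate exporter SLC16A3, EPAS1, the glycolysis activator PFKFB3 and the aldolase ALDOC furthest down under DMSO. Under DMSO, 24 members (68.6%) were lower and 5 (14.3%) higher in KO cells, where 30.1% of all tested genes were lower and 31.4% higher. Under Nutlin-3a, again 24 (68.6%) were lower and 7 (20%) higher, against 30.4% and 32.7% of all tested genes. The members' median was -0.42 under DMSO and -0.32 under Nutlin-3a, beside 0.01 and 0.02 over all tested genes. Past 2-fold, 6 members were lower under DMSO and 8 under Nutlin-3a, and 0 were higher in either, where 7.23% and 8.49% of all tested genes were lower and 9.88% and 10.1% higher past 2-fold. The comparisons of the 4 groups share libraries, so their counts are not independent of each other.

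The size of the Nutlin-3a response differed between genotypes for 19 of the 35 members. The response was more positive in KO than in WT cells for 9 members (25.7%), against 14.2% of all tested genes, and more negative for 10 (28.6%), against 13.4%. More negative responses were found for both glucose transporters and for 4 of the 5 oxygen-sensing genes, and more positive responses for 5 of the 15 glycolytic enzymes, with 2 enzymes more negative. Past 2-fold, the responses of EPAS1 and NDRG1 were more negative in KO cells (5.71%, against 2.1% of all tested genes), and 0 members were more positive, against 1.59%. Without the 3 libraries that stood apart from their replicates, the number of more positive responses was 14 in place of 9.

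**Figure D1:**
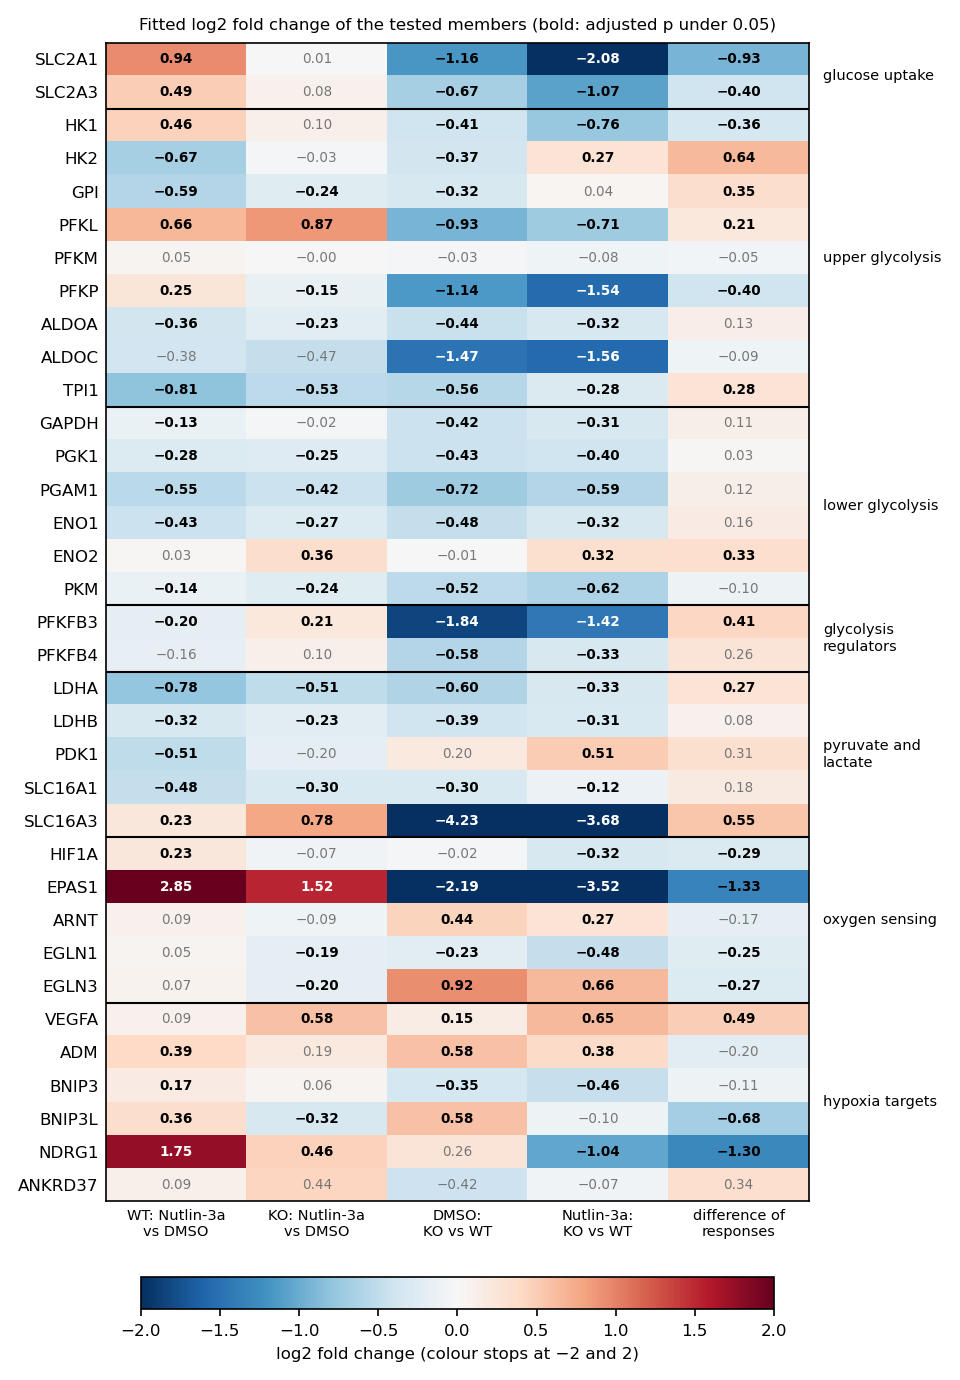
Fitted log2 fold change of the 35 tested members (rows, grouped by role) in the 5 comparisons (columns); red is higher, blue is lower, and bold values passed the adjusted p threshold of 0.05. The 2 KO against WT columns are mostly blue, with SLC16A3 at -4.23 and -3.68, and the rise of EPAS1 is 2.85 in WT and 1.52 in KO cells.

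Promoter sequence is shown for 4 members on which the results below turn: EPAS1, with the largest response, SLC2A1, with a response called in WT cells alone, LDHA, which fell in both genotypes, and SLC16A3, with the largest genotype difference. RefSeq promoter windows of the GRCh38.p14 build were matched by symbol for 31 of the 36 members, and no coordinate of the deposited files, which use GRCh37, was converted. The letters searched were ACGTG and GCGTG, the core sequences that HIF dimers bind, on either strand in the 250 bases before the annotated gene start. Capitals mark the matches, and CACGTG counts as 2 because it holds ACGTG on both strands. The windows are chr2:46297157-46297406 on the + strand for EPAS1, chr1:42958869-42959118 on the - strand for SLC2A1, chr11:18394313-18394562 on the + strand for LDHA, and chr17:82228185-82228434 on the + strand for SLC16A3. Each is printed 5′ to 3′ along the gene.
EPAS1: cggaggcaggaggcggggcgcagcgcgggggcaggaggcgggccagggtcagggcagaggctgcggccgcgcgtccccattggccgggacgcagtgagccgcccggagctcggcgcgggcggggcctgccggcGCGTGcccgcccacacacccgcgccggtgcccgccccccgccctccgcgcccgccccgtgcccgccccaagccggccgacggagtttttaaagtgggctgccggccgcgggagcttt
SLC2A1: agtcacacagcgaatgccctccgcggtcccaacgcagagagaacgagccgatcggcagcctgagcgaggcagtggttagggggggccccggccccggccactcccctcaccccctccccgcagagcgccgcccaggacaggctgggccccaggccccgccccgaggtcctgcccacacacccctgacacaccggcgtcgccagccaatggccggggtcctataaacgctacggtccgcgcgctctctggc
LDHA: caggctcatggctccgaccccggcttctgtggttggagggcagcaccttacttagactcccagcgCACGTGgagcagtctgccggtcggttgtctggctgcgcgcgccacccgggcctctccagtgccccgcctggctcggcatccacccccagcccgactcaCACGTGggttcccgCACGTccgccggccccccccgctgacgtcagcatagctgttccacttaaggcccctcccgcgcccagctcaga
SLC16A3: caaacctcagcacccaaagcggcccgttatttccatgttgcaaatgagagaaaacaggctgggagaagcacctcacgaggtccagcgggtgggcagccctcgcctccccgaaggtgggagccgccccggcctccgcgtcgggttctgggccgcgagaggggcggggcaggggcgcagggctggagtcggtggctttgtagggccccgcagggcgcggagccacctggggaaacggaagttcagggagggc
LDHA held 5 matches, EPAS1 held 1, and SLC2A1 and SLC16A3 held 0 in this window. At least 1 match was found in 19 of the 31 members' windows (61.3%), compared with 43.2% of the 35116 RefSeq windows of this length. Only the first listed window of a member was searched, whereas the 35116 include every window of a gene. Other starts of a member were not searched. For ACGTG alone the shares were 38.7% and 18.5%, and for GCGTG alone 35.5% and 32.2%. The p53 half-site consensus was found in 3 members' windows (9.68%), those of HK1, PGAM1 and CA9, compared with 5.57% of all windows. A match describes the letters and is not evidence of binding.

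Glucose enters the cell through the facilitative transporters GLUT1, from SLC2A1, and GLUT3, from SLC2A3. Both genes rose with Nutlin-3a in WT cells, neither passed the test in KO cells, and both had a lower level in KO cells under either treatment. SLC2A1 stood at 29.2 and 29.9 CPM with DMSO and at 57.1 and 56.1 with Nutlin-3a in WT cells, against 13.9 and 12.6 with DMSO and 12.7 and 14.0 with Nutlin-3a in KO cells. The 2 WT Nutlin-3a libraries were the highest, and the KO groups overlapped each other well under the WT DMSO libraries. The rise in WT cells was 1.92-fold (log2 fold change 0.94, SE 0.069, adjusted p = 1.09e-09). In KO cells the fitted change was 0.01 (SE 0.082, adjusted p = 0.935), and the difference of the responses passed the test (log2 fold change -0.93, SE 0.11, adjusted p = 4.07e-06). Against WT cells, the KO level was 2.23-fold lower under DMSO (log2 fold change -1.16, SE 0.077, adjusted p = 2.61e-10) and 4.24-fold lower under Nutlin-3a (log2 fold change -2.08, SE 0.074, adjusted p = 2.3e-14). SLC2A3 stood at 13.7 and 14.9 CPM with DMSO and at 20.6 and 19.4 with Nutlin-3a in WT cells, against 9.31 and 8.66 with DMSO and 10.1 and 8.89 with Nutlin-3a in KO cells. Its pattern over the groups was that of SLC2A1 with smaller steps. It rose in WT cells (log2 fold change 0.49, SE 0.096, adjusted p = 0.000252), changed by 0.08 in KO cells (SE 0.10, adjusted p = 0.57), and was lower in KO cells under DMSO (log2 fold change -0.67, SE 0.10, adjusted p = 1.44e-05) and under Nutlin-3a (log2 fold change -1.07, SE 0.098, adjusted p = 2.1e-08). The difference between its responses was -0.40 (SE 0.14, adjusted p = 0.0419). That call was lost when any library other than WT Nutlin-3a replicate 2 or KO Nutlin-3a replicate 1 was left out, with values from -0.46 to -0.32 and adjusted p from 0.0564 to 0.159.

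**Figure D2:**
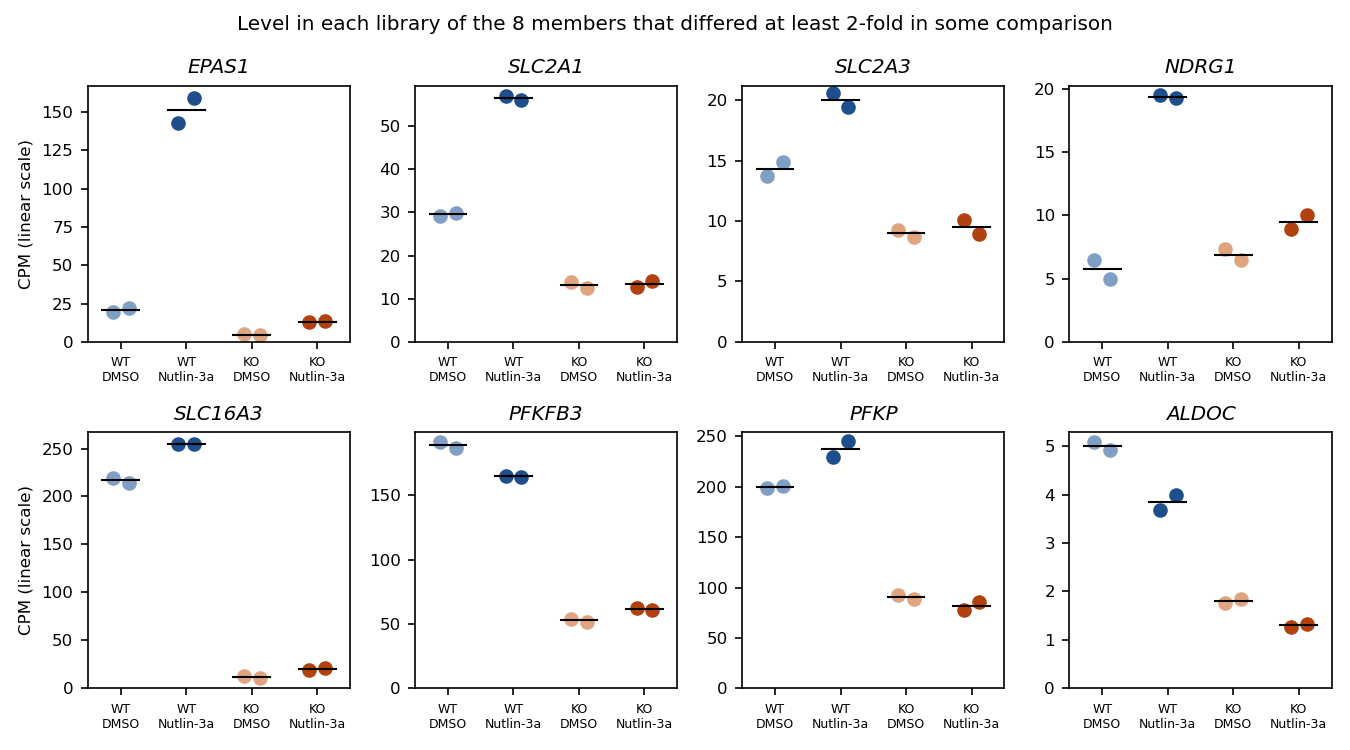
CPM (linear axis from 0) in each of the 8 libraries for the 8 members called with at least a 2-fold change in some comparison; points are libraries and bars the group means. EPAS1, SLC2A1, SLC2A3, NDRG1, SLC16A3 and PFKP peak in WT Nutlin-3a cells, and PFKFB3 and ALDOC in WT DMSO cells. For all of them except NDRG1, every KO library lies under every WT library.

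The first steps of glycolysis trap glucose as its phosphate and split the sugar. Hexokinases HK1 and HK2 add the first phosphate, GPI makes fructose 6-phosphate, the phosphofructokinases PFKL, PFKM and PFKP carry out the committed step, the aldolases ALDOA and ALDOC split the product, and TPI1 interconverts the triose phosphates. Of these 9 genes, 4 fell and 3 rose with Nutlin-3a in WT cells, 4 fell and 1 rose in KO cells, and 8 were lower in KO cells when both genotypes had DMSO. Under Nutlin-3a 6 were lower and 1 higher in KO cells. The 3 rises in WT cells (33.3%) and the 1 rise in KO cells (11.1%) stand beside 29.4% and 18.1% of all tested genes, the falls (44.4% in each genotype) beside 29.2% and 20.6%, and the lower KO levels (88.9% and 66.7%) beside 30.1% and 30.4%.

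The hexokinases moved in opposite directions in WT cells. HK1 stood at 93.7 and 87.1 CPM with DMSO and at 123 and 125 with Nutlin-3a in WT cells, against 69.2 and 67.3 with DMSO and 73.6 and 72.7 with Nutlin-3a in KO cells. It was highest in WT Nutlin-3a cells, with a rise in WT cells (log2 fold change 0.46, SE 0.05, adjusted p = 2.36e-07), and it was lower in KO cells under DMSO (log2 fold change -0.41, SE 0.05, adjusted p = 1.38e-06) and under Nutlin-3a (log2 fold change -0.76, SE 0.05, adjusted p = 1.76e-10). The KO response was 0.10 (adjusted p = 0.129), which passed without WT Nutlin-3a replicate 1 (0.12, adjusted p = 0.026). HK2, the form tied to fast-growing and tumour cells, stood at 90.3 and 91.9 CPM with DMSO and at 53.7 and 61.0 with Nutlin-3a in WT cells, against 68.4 and 72.4 with DMSO and 67.2 and 71.2 with Nutlin-3a in KO cells. WT Nutlin-3a cells held its lowest level, with a fall in WT cells (log2 fold change -0.67, SE 0.061, adjusted p = 2.15e-08), while the KO groups overlapped (-0.03, SE 0.059, adjusted p = 0.764). The responses of HK1 and HK2 both differed between genotypes, by -0.36 (SE 0.071, adjusted p = 0.000951) and 0.64 (SE 0.085, adjusted p = 1.82e-05). HK2 was lower in KO cells under DMSO (log2 fold change -0.37, SE 0.059, adjusted p = 2.63e-05) and higher under Nutlin-3a (log2 fold change 0.27, SE 0.061, adjusted p = 0.000828). The latter value was 0.17 without WT Nutlin-3a replicate 1 (adjusted p = 0.0102), and was not called without the 3 libraries that stood apart from their replicates (0.13, adjusted p = 0.0698). Per length, HK2 made up 36.8 and 39.0% of the summed hexokinase RPKM with DMSO and 20.9 and 22.7% with Nutlin-3a in WT cells, against 37.4 and 39.4% and then 35.6 and 37.2% in KO cells.

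Among the phosphofructokinases, PFKL rose with Nutlin-3a in both genotypes, PFKP was lower in KO cells, and PFKM was called in none of the 5 comparisons. PFKL, the liver form, stood at 114 and 109.8 CPM with DMSO and at 170.2 and 184 with Nutlin-3a in WT cells, against 56.0 and 61.6 with DMSO and 109 and 107 with Nutlin-3a in KO cells. The rise was 1.58-fold in WT (log2 fold change 0.66, SE 0.053, adjusted p = 4.08e-09) and 1.83-fold in KO cells (log2 fold change 0.87, SE 0.055, adjusted p = 3.15e-10), and the KO level was lower under DMSO (log2 fold change -0.93, SE 0.056, adjusted p = 5.83e-11) and under Nutlin-3a (log2 fold change -0.71, SE 0.053, adjusted p = 1.16e-09). The KO response was larger by 0.21 (SE 0.077, adjusted p = 0.0465). That difference was lost when any library other than WT Nutlin-3a replicate 2 or KO DMSO replicate 2 was left out (0.15 to 0.24, adjusted p from 0.0737 to 0.277). PFKP, the platelet form, stood at 199 and 201 CPM with DMSO and at 229.7 and 245 with Nutlin-3a in WT cells, against 92.3 and 88.6 with DMSO and 77.6 and 85.5 with Nutlin-3a in KO cells. All 4 KO libraries lay under all 4 WT libraries, 2.21-fold lower under DMSO (log2 fold change -1.14, SE 0.053, adjusted p = 1.2e-12) and 2.92-fold lower under Nutlin-3a (log2 fold change -1.54, SE 0.053, adjusted p = 1.42e-14). It rose in WT cells (log2 fold change 0.25, SE 0.051, adjusted p = 0.00038) and fell in KO cells (log2 fold change -0.15, SE 0.054, adjusted p = 0.0343), with a difference of the responses of -0.40 (SE 0.074, adjusted p = 0.000531). The fall in KO cells was lost without either WT DMSO library, either KO DMSO library or KO Nutlin-3a replicate 1 (-0.18 to -0.08, adjusted p from 0.0556 to 0.404), and stood at -0.23 without KO Nutlin-3a replicate 2 (adjusted p = 0.0155). PFKM, the muscle form, ranged from 156 to 170.2 CPM over the 8 libraries. As a share of the summed phosphofructokinase RPKM, PFKP led in WT DMSO cells with 46.8 and 47.7%, and PFKM led in KO DMSO cells with 46.7 and 46.3%. Under Nutlin-3a, PFKP held 45.4 and 45.7% in WT cells and 26.1 and 28.5% in KO cells, and PFKL 29.3 and 29.8% and 32.0 and 31.0%.

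Of the remaining upper enzymes, TPI1, GPI and ALDOA fell with Nutlin-3a in both genotypes, and ALDOC passed in neither by the edgeR test. TPI1 stood at 730.2 and 734 CPM with DMSO and at 443 and 393 with Nutlin-3a in WT cells, against 503 and 488 with DMSO and 336 and 351 with Nutlin-3a in KO cells. The fall was 1.75-fold in WT (log2 fold change -0.81, SE 0.054, adjusted p = 2.38e-10) and 1.44-fold in KO cells (log2 fold change -0.53, SE 0.054, adjusted p = 2.39e-07), and KO levels were lower under DMSO (log2 fold change -0.56, SE 0.053, adjusted p = 3.85e-08) and under Nutlin-3a (log2 fold change -0.28, SE 0.054, adjusted p = 0.00016). The fall was smaller in KO cells by 0.28 (SE 0.076, adjusted p = 0.00983), a difference lost without WT DMSO replicate 2, KO DMSO replicate 2 or KO Nutlin-3a replicate 2 (0.25 to 0.28, adjusted p from 0.0503 to 0.0725). GPI stood at 363 and 367 CPM with DMSO and at 254 and 229.8 with Nutlin-3a in WT cells, against 299 and 287 with DMSO and 249.9 and 247 with Nutlin-3a in KO cells. WT DMSO cells held the highest level, and the fall was -0.59 in WT (SE 0.050, adjusted p = 7.46e-09) and -0.24 in KO cells (SE 0.050, adjusted p = 0.000841). The genotypes differed in GPI response by 0.36 (SE 0.071, adjusted p = 0.00095) and in level under DMSO by -0.32 (SE 0.050, adjusted p = 2.22e-05). Under Nutlin-3a the difference in level was 0.04 (adjusted p = 0.519), which passed at 0.11 without WT Nutlin-3a replicate 1 (adjusted p = 0.0332) and turned to -0.03 without WT Nutlin-3a replicate 2 (adjusted p = 0.545). ALDOA ranged from 444 to 716 CPM, lowest in KO Nutlin-3a cells, and was called lower in all 4 comparisons between groups. ALDOC, the brain aldolase, stood at 5.09 and 4.92 CPM with DMSO and at 3.69 and 3.99 with Nutlin-3a in WT cells, against 1.76 and 1.84 with DMSO and 1.28 and 1.32 with Nutlin-3a in KO cells. All KO libraries lay under all WT libraries, 2.77-fold lower under DMSO (log2 fold change -1.47, SE 0.17, adjusted p = 6.97e-07) and 2.95-fold under Nutlin-3a (log2 fold change -1.56, SE 0.19, adjusted p = 1.03e-06). Its log2 changes with Nutlin-3a were -0.38 in WT (adjusted p = 0.0501) and -0.47 in KO cells (adjusted p = 0.0811). Both falls passed in the limma fits of log2 RPKM, at -0.36 and -0.27 in WT (adjusted p from 0.00711 to 0.0195) and -0.40 and -0.21 in KO cells (adjusted p from 0.0222 to 0.0352) with a pseudocount of 0.1 and 1.

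**Figure D3:**
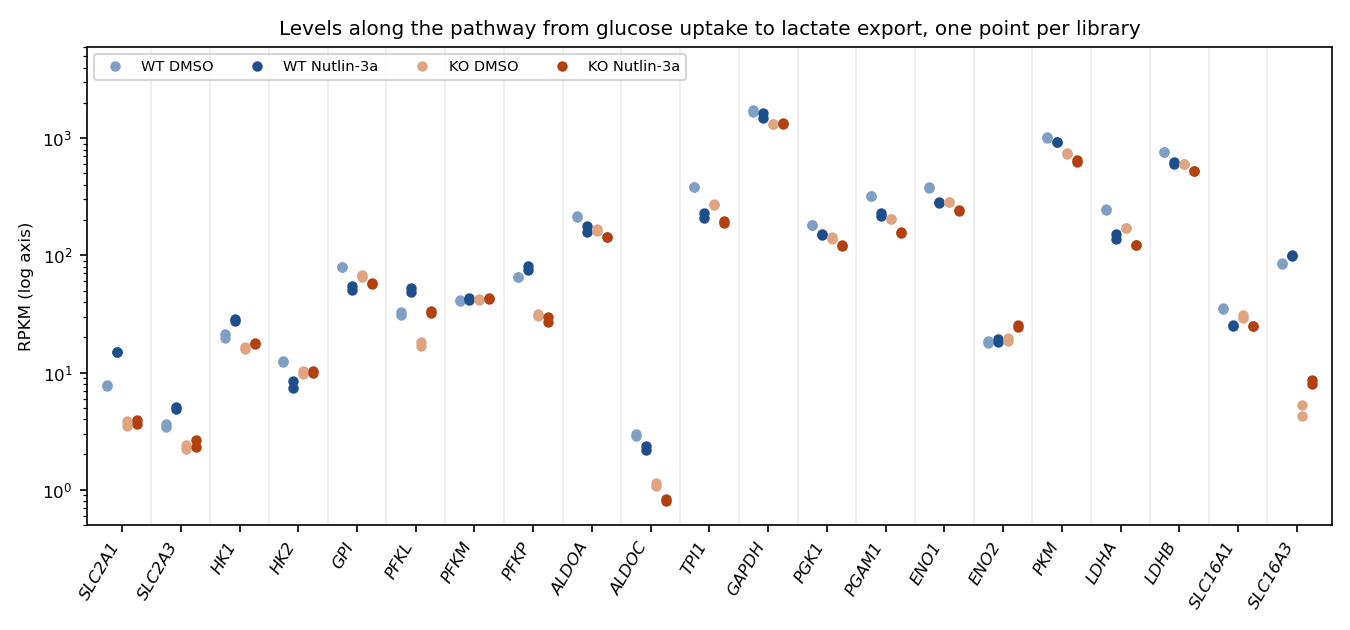
RPKM (log axis) in each library for 21 members in the order of the pathway, from glucose transporters at the left to lactate transporters at the right. GAPDH, PKM and LDHB are the most abundant, WT DMSO points lie at the top for most enzymes, and SLC16A3 shows the widest gap between genotypes.

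The lower steps turn triose phosphate into pyruvate and return the ATP. GAPDH oxidises the triose, PGK1 makes ATP, PGAM1 moves the phosphate, ENO1 and ENO2 make phosphoenolpyruvate, and PKM makes pyruvate and more ATP. Of these 6 genes, 5 fell in WT cells and 4 in KO cells, and 5 had a lower level in KO cells under each treatment. The falls are 83.3% and 66.7% of these genes, beside 29.2% and 20.6% of all tested genes. The lower KO levels are 83.3% under each treatment, beside 30.1% and 30.4%. ENO2, the neuronal enolase, was not called lower in any comparison. The most abundant were GAPDH, with a mean of 1699 RPKM in WT DMSO and 1335 in KO Nutlin-3a cells, and PKM, with 1014 and 641. Many of these genes, such as GAPDH, PGK1 and PGAM1, have near-identical processed pseudogenes, and the counting of shared reads is not described here by any source used, so their levels are less certain.

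PGAM1 stood at 571 and 570.0 CPM with DMSO and at 405 and 377 with Nutlin-3a in WT cells, against 347 and 347 with DMSO and 256 and 262 with Nutlin-3a in KO cells. No groups overlapped, and KO libraries lay under WT libraries. With Nutlin-3a the log2 change was -0.55 in WT (SE 0.047, adjusted p = 8.47e-09) and -0.42 in KO cells (SE 0.047, adjusted p = 7.9e-07), and the KO level was lower under DMSO (log2 fold change -0.72, SE 0.047, adjusted p = 1.87e-10) and under Nutlin-3a (log2 fold change -0.59, SE 0.047, adjusted p = 2.91e-09). ENO1 stood at 1284 and 1249 CPM with DMSO and at 948 and 934 with Nutlin-3a in WT cells, against 907 and 911 with DMSO and 747 and 759 with Nutlin-3a in KO cells. It fell by 0.43 on the log2 scale in WT and by 0.27 in KO cells (adjusted p = 1.35e-07 and 7.9e-05), and differed between genotypes by -0.48 under DMSO and -0.32 under Nutlin-3a (adjusted p = 3.07e-08 and 4.91e-06). ENO2 stood at 46.6 and 45.0 CPM with DMSO and at 47.9 and 45.4 with Nutlin-3a in WT cells, against 46.6 and 44.2 with DMSO and 56.6 and 59.8 with Nutlin-3a in KO cells. The 3 other groups overlapped, and KO Nutlin-3a cells were the highest, with a rise in KO cells (log2 fold change 0.36, SE 0.057, adjusted p = 5.79e-05), a higher level than in WT Nutlin-3a cells (log2 fold change 0.32, SE 0.058, adjusted p = 0.000109) and a difference of the responses of 0.33 (SE 0.083, adjusted p = 0.00562). Its share of the summed RPKM of ENO1 and ENO2 was 4.64 and 4.62% in WT DMSO and 9.24 and 9.56% in KO Nutlin-3a cells. That sum leaves out ENO3, another enolase gene, which is not a member. ENO3 had a mean of 26.1 RPKM in WT DMSO and 27.0 in KO Nutlin-3a cells, beside 18.4 and 24.9 for ENO2. PKM stood at 3342 and 3301 CPM with DMSO and at 3042 and 3006 with Nutlin-3a in WT cells, against 2325 and 2302 with DMSO and 1927 and 2002 with Nutlin-3a in KO cells. The KO libraries were lower under DMSO (log2 fold change -0.52, SE 0.046, adjusted p = 1.4e-08) and under Nutlin-3a (log2 fold change -0.62, SE 0.046, adjusted p = 1.04e-09).

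Of the other lower enzymes, GAPDH ranged from 2393 to 3353 CPM and PGK1 from 279.6 to 455 CPM. GAPDH fell in WT cells (log2 fold change -0.13, SE 0.052, adjusted p = 0.0373), and the call was lost when any library other than WT Nutlin-3a replicate 1 was left out (-0.15 to -0.06, adjusted p from 0.0517 to 0.319). PKM fell in WT cells by -0.14 (adjusted p = 0.0167), a call lost without WT DMSO replicate 1 or replicate 2 (-0.15 and -0.10, adjusted p from 0.0677 to 0.197). Between genotypes, GAPDH differed by -0.42 under DMSO and -0.31 under Nutlin-3a (adjusted p = 1.17e-06 and 4.01e-05), and PGK1 by -0.43 and -0.40 (adjusted p = 1.93e-07 and 4.21e-07).

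PFKFB3 and PFKFB4 make fructose 2,6-bisphosphate, the strongest activator of phosphofructokinase. PFKFB3 was far lower in KO cells and moved in opposite directions with Nutlin-3a in the genotypes. It stood at 192 and 186 CPM with DMSO and at 165 and 164 with Nutlin-3a in WT cells, against 54.1 and 51.8 with DMSO and 62.1 and 60.6 with Nutlin-3a in KO cells. All KO libraries lay under all WT libraries, 3.57-fold lower under DMSO (log2 fold change -1.84, SE 0.048, adjusted p = 2.76e-16) and 2.68-fold lower under Nutlin-3a (log2 fold change -1.42, SE 0.047, adjusted p = 8.59e-15). It fell in WT cells (log2 fold change -0.20, SE 0.045, adjusted p = 0.000861) and rose in KO cells (log2 fold change 0.21, SE 0.049, adjusted p = 0.00195), and the responses differed by 0.41 (SE 0.066, adjusted p = 0.000136). The rise in KO cells was 0.18 and not called without KO DMSO replicate 2 (adjusted p = 0.0543). PFKFB4 stood at 13.7 and 10.5 CPM with DMSO and at 11.1 and 10.6 with Nutlin-3a in WT cells, against 8.24 and 7.91 with DMSO and 8.77 and 8.50 with Nutlin-3a in KO cells. It was lower in KO cells under DMSO (log2 fold change -0.58, SE 0.12, adjusted p = 0.000401), with a value of -0.37 without WT DMSO replicate 1 (adjusted p = 0.0268). Under Nutlin-3a it was lower too (log2 fold change -0.33, SE 0.12, adjusted p = 0.0273). That call was lost without WT Nutlin-3a replicate 1 or either KO Nutlin-3a library (-0.35 to -0.30). Other settings lost it too (-0.35 to -0.17), namely upper-quartile factors, the DESeq2 Wald test, both limma fits and the fit without the 3 libraries that stood apart. Per length, PFKFB3 made up 91.0 and 92.8% of the pair in WT DMSO and 82.5 and 82.5% in KO DMSO cells.

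Pyruvate is reduced to lactate by lactate dehydrogenase, with LDHA and LDHB as its subunits, and lactate leaves through the monocarboxylate transporters MCT1, from SLC16A1, and MCT4, from SLC16A3. PDK1 blocks pyruvate dehydrogenase, which uses pyruvate inside the mitochondria. With Nutlin-3a, 4 of these 5 genes fell in WT cells and 3 in KO cells, and SLC16A3 rose in both. In KO cells 4 were lower than in WT cells under either treatment. The falls are 80% and 60% of these genes, beside 29.2% and 20.6% of all tested genes. The rise of SLC16A3 is 20% in each genotype, beside 29.4% and 18.1%. The lower KO levels are 80% under each treatment, beside 30.1% and 30.4%.

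SLC16A3 showed the largest genotype difference of all members. It stood at 219 and 214 CPM with DMSO and at 254 and 254 with Nutlin-3a in WT cells, against 12.8 and 10.4 with DMSO and 19.0 and 20.8 with Nutlin-3a in KO cells. The KO level was 18.7-fold lower under DMSO (log2 fold change -4.23, SE 0.071, adjusted p = 1.19e-18) and 12.8-fold lower under Nutlin-3a (log2 fold change -3.68, SE 0.067, adjusted p = 3.05e-18). Nutlin-3a raised it in WT (log2 fold change 0.23, SE 0.056, adjusted p = 0.00157) and in KO cells (log2 fold change 0.78, SE 0.081, adjusted p = 3.84e-07), with a larger log2 response in KO cells by 0.55 (SE 0.099, adjusted p = 0.000401). SLC16A1 stood at 169.9 and 168 CPM with DMSO and at 121 and 121 with Nutlin-3a in WT cells, against 133 and 142 with DMSO and 111 and 112 with Nutlin-3a in KO cells. It fell by -0.48 in WT and -0.30 in KO cells (adjusted p = 5.01e-08 and 3.69e-05) and was lower in KO cells under DMSO (log2 fold change -0.30, SE 0.046, adjusted p = 1.89e-05). Its KO level was also lower under Nutlin-3a (log2 fold change -0.12, SE 0.047, adjusted p = 0.035). That call was lost without WT DMSO replicate 2 or either KO Nutlin-3a library (-0.13 to -0.11). With upper-quartile factors, in the separate fit of the 4 libraries compared and in both limma fits it was lost too (-0.12 to -0.03, adjusted p from 0.0738 to 0.603). SLC16A3 made up 70.8 and 70.6% of the pair's RPKM with DMSO and 79.9 and 79.8% with Nutlin-3a in WT cells, but in KO cells 15.3 and 12.1% with DMSO and 24.4 and 25.8% with Nutlin-3a. SLC16A1 was thus the more abundant of the pair, per length, in the KO groups.

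LDHA, the HIF-driven subunit whose promoter window holds 5 core matches, stood at 643 and 654 CPM with DMSO and at 398 and 359 with Nutlin-3a in WT cells, against 430.1 and 428 with DMSO and 299.7 and 304 with Nutlin-3a in KO cells. WT DMSO libraries were the highest and KO Nutlin-3a libraries the lowest. The fall was 1.71-fold in WT (log2 fold change -0.78, SE 0.05, adjusted p = 1.48e-10) and 1.42-fold in KO cells (log2 fold change -0.51, SE 0.05, adjusted p = 1.59e-07), smaller in KO cells by 0.27 (SE 0.070, adjusted p = 0.00796). KO levels were lower under DMSO (log2 fold change -0.60, SE 0.05, adjusted p = 6.49e-09) and under Nutlin-3a (log2 fold change -0.33, SE 0.05, adjusted p = 1.57e-05). LDHB ranged from 804 to 1254 CPM and moved the same way with smaller steps. Its log2 change with Nutlin-3a was -0.32 in WT and -0.23 in KO cells (adjusted p = 9.59e-06 and 0.000549). Between genotypes LDHB differed by -0.39 under DMSO and -0.31 under Nutlin-3a (adjusted p = 6.66e-07 and 1.24e-05). The difference of its responses was 0.08 and was not called (adjusted p = 0.371). LDHA made up 24.4 and 24.6% of the RPKM of the pair with DMSO and 19.4 and 18.8% with Nutlin-3a in WT cells, against 22.1 and 21.9% and then 18.9 and 18.9% in KO cells. PDK1 stood at 11.0 and 10.3 CPM with DMSO and at 7.75 and 7.19 with Nutlin-3a in WT cells, against 12.3 and 12.1 with DMSO and 10.6 and 10.7 with Nutlin-3a in KO cells. WT Nutlin-3a libraries were the lowest, with a fall in WT cells (log2 fold change -0.51, SE 0.11, adjusted p = 0.000513) and a higher level in KO than in WT cells under Nutlin-3a (log2 fold change 0.51, SE 0.11, adjusted p = 0.000392).

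**Figure D4:**
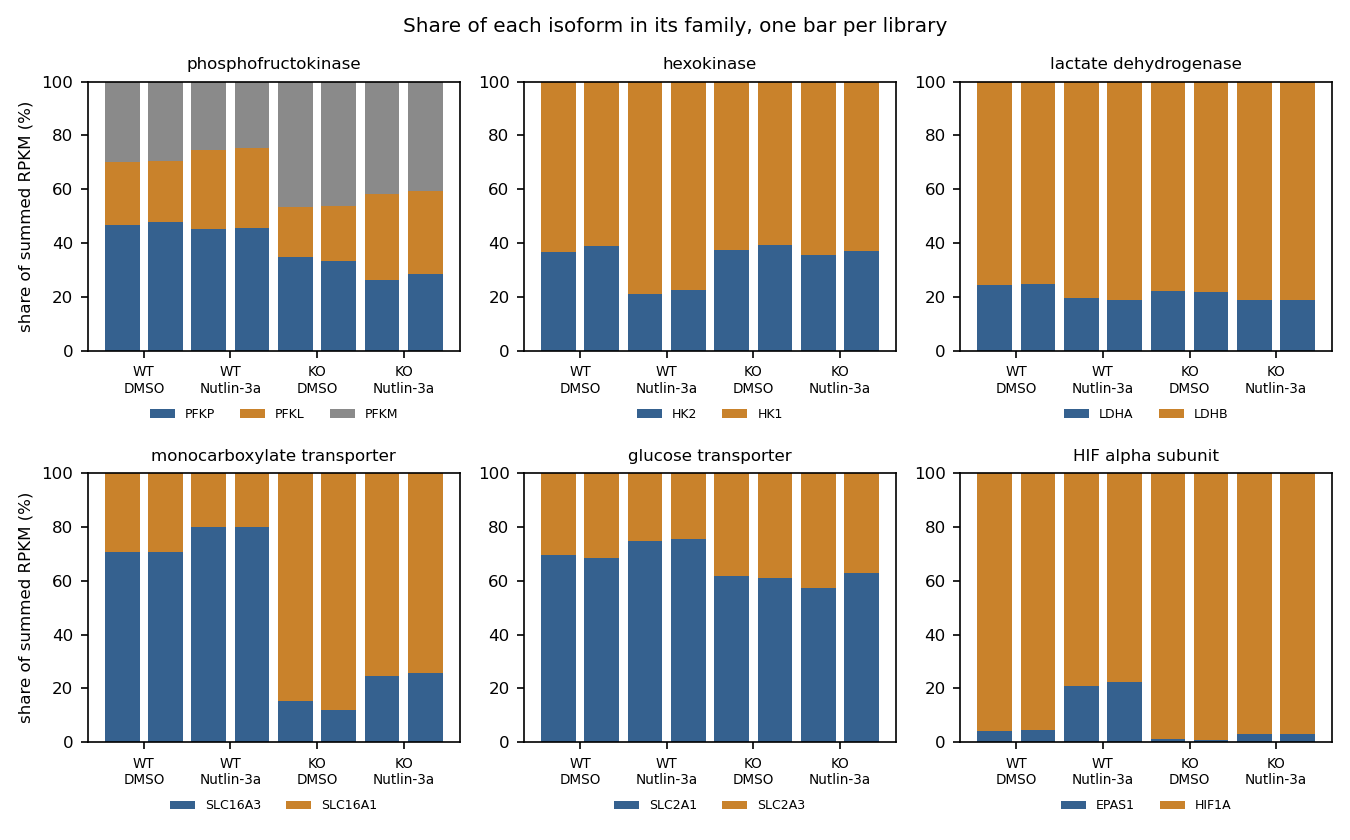
Share of each isoform in the summed RPKM of the members of its family (percent, 1 bar per library) for 6 families. The shares of SLC16A3 and PFKP are smaller in KO than in WT libraries, and the shares of EPAS1, at most 22.5%, and of HK1 are largest in WT Nutlin-3a libraries.

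The HIF alpha subunits are made from HIF1A and EPAS1, ARNT is their partner, and EGLN1 and EGLN3 are prolyl hydroxylases that mark the alpha subunits for destruction. EPAS1, whose promoter is shown above, had the largest Nutlin-3a response of the members. It stood at 19.7 and 22.1 CPM with DMSO and at 143 and 159 with Nutlin-3a in WT cells, against 4.92 and 4.25 with DMSO and 12.9 and 13.5 with Nutlin-3a in KO cells. No groups overlapped, and the WT Nutlin-3a libraries were far above all others. The rise was 7.23-fold in WT (log2 fold change 2.85, SE 0.073, adjusted p = 2.67e-16) and 2.88-fold in KO cells (log2 fold change 1.52, SE 0.11, adjusted p = 1.26e-09), and the KO response was smaller (log2 fold change -1.33, SE 0.13, adjusted p = 8.87e-07). Against WT cells, the KO level was 4.56-fold lower under DMSO (log2 fold change -2.19, SE 0.10, adjusted p = 1.32e-12) and 11.5-fold lower under Nutlin-3a (log2 fold change -3.52, SE 0.076, adjusted p = 2.09e-17). Per length, EPAS1 made up 4.16 and 4.46% of the RPKM of the alpha subunits with DMSO and 21.1 and 22.5% with Nutlin-3a in WT cells, against 1.07 and 0.920% and then 2.97 and 2.92% in KO cells. HIF1A was thus the more abundant alpha transcript in every library.

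HIF1A stood at 386 and 403 CPM with DMSO and at 456 and 466 with Nutlin-3a in WT cells, against 386 and 390.0 with DMSO and 358 and 382 with Nutlin-3a in KO cells. It was highest in WT Nutlin-3a cells, with a rise in WT cells (log2 fold change 0.23, SE 0.047, adjusted p = 0.000465) and a KO level that was lower under Nutlin-3a (log2 fold change -0.32, SE 0.047, adjusted p = 1.14e-05). In KO cells the change was -0.07 (adjusted p = 0.278), which passed at -0.10 without the 3 libraries that stood apart from their replicates (adjusted p = 0.00796), and the responses differed by -0.29 (SE 0.067, adjusted p = 0.00291). HIF-1 alpha is controlled mainly through protein stability, which these data do not measure. ARNT ranged from 52.3 to 72.2 CPM. It was higher in KO cells under DMSO (log2 fold change 0.44, SE 0.058, adjusted p = 2.76e-06) and under Nutlin-3a (log2 fold change 0.27, SE 0.058, adjusted p = 0.000575), the latter at 0.18 without WT Nutlin-3a replicate 1 (adjusted p = 0.00794).

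The hydroxylases differed from each other. EGLN3 stood at 24.6 and 26.2 CPM with DMSO and at 26.7 and 26.6 with Nutlin-3a in WT cells, against 48.4 and 48.0 with DMSO and 42.0 and 41.9 with Nutlin-3a in KO cells. All KO libraries lay above all WT libraries, by 1.90-fold under DMSO (log2 fold change 0.92, SE 0.061, adjusted p = 2.48e-10) and 1.58-fold under Nutlin-3a (log2 fold change 0.66, SE 0.062, adjusted p = 3.17e-08). It fell by 0.20 on the log2 scale in KO cells (SE 0.058, adjusted p = 0.00955) and differed in response by -0.27 (SE 0.087, adjusted p = 0.0282). The fall was lost without either KO DMSO library or KO Nutlin-3a replicate 1 (-0.21 to -0.20, adjusted p from 0.0568 to 0.0683), and the difference when any library other than WT DMSO replicate 2 or the WT Nutlin-3a libraries was left out (-0.28 to -0.23, adjusted p from 0.0678 to 0.12). EGLN1 stood at 81.8 and 84.4 CPM with DMSO and at 86.6 and 85.7 with Nutlin-3a in WT cells, against 67.9 and 73.6 with DMSO and 61.2 and 62.5 with Nutlin-3a in KO cells. Its level was lower in KO cells under DMSO (log2 fold change -0.23, SE 0.052, adjusted p = 0.000835) and under Nutlin-3a (log2 fold change -0.48, SE 0.053, adjusted p = 2.58e-07). The fall in KO cells (log2 fold change -0.19, SE 0.052, adjusted p = 0.00628) was lost without KO DMSO replicate 2 or KO Nutlin-3a replicate 1 (-0.18 to -0.14, adjusted p from 0.0662 to 0.143). The difference of its responses (log2 fold change -0.25, SE 0.074, adjusted p = 0.0183) was lost without WT DMSO replicate 1, KO DMSO replicate 2 or KO Nutlin-3a replicate 1 (-0.23 to -0.19, adjusted p from 0.0781 to 0.138). In WT cells the changes with Nutlin-3a were 0.05 for EGLN1 and 0.07 for EGLN3 (adjusted p = 0.415 and 0.395).

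Of the 6 tested hypoxia targets outside glycolysis, 4 rose with Nutlin-3a in WT cells and 0 fell, while 2 rose and 1 fell in KO cells. The rises are 66.7% and 33.3% of them, beside 29.4% and 18.1% of all tested genes. NDRG1, a stress-responsive gene induced by low oxygen, stood at 6.47 and 4.99 CPM with DMSO and at 19.5 and 19.3 with Nutlin-3a in WT cells, against 7.32 and 6.46 with DMSO and 8.91 and 10.0 with Nutlin-3a in KO cells. The WT Nutlin-3a libraries lay above all others. The rise was 3.37-fold in WT (log2 fold change 1.75, SE 0.12, adjusted p = 5.58e-10) and 1.37-fold in KO cells (log2 fold change 0.46, SE 0.12, adjusted p = 0.00612), and the responses differed by -1.30 (SE 0.18, adjusted p = 2.35e-05). The rise in KO cells was lost without KO DMSO replicate 2 or KO Nutlin-3a replicate 2 (0.37 in each, adjusted p from 0.08 to 0.0997). The KO level was 2.05-fold lower under Nutlin-3a (log2 fold change -1.04, SE 0.11, adjusted p = 2.33e-07). Under DMSO the difference was 0.26 (adjusted p = 0.103), and it passed at 0.46 without WT DMSO replicate 1 (adjusted p = 0.0251).

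BNIP3 and BNIP3L encode mitochondrial proteins that promote removal of mitochondria. BNIP3L stood at 37.5 and 33.5 CPM with DMSO and at 44.1 and 47.1 with Nutlin-3a in WT cells, against 52.5 and 53.7 with DMSO and 43.0 and 42.2 with Nutlin-3a in KO cells. It rose in WT (log2 fold change 0.36, SE 0.065, adjusted p = 0.000115) and fell in KO cells (log2 fold change -0.32, SE 0.061, adjusted p = 0.000414), with a difference of the responses of -0.68 (SE 0.090, adjusted p = 1.82e-05). Under DMSO the KO level was higher (log2 fold change 0.58, SE 0.063, adjusted p = 2.67e-07), and under Nutlin-3a the difference was -0.10 (adjusted p = 0.192). BNIP3 stood at 79.5 and 70.8 CPM with DMSO and at 89.5 and 79.0 with Nutlin-3a in WT cells, against 57.6 and 60.4 with DMSO and 61.9 and 60.8 with Nutlin-3a in KO cells. It was lower in KO cells under DMSO (log2 fold change -0.35, SE 0.065, adjusted p = 0.000156) and under Nutlin-3a (log2 fold change -0.46, SE 0.065, adjusted p = 7.21e-06). BNIP3 rose in WT cells (log2 fold change 0.17, SE 0.065, adjusted p = 0.0363), where the groups overlapped. That call was lost when any library other than WT DMSO replicate 1 or WT Nutlin-3a replicate 2 was left out (0.08 to 0.16). The rise stood at 0.27 and 0.25 without those libraries. Other settings lost the call too (0.02 to 0.17). These were the DESeq2 Wald test, the separate fit of the 4 libraries compared, both limma fits, and the fit without the 3 libraries that stood apart.

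VEGFA, the angiogenic growth factor, stood at 48.7 and 47.0 CPM with DMSO and at 49.6 and 52.1 with Nutlin-3a in WT cells, against 54.2 and 52.2 with DMSO and 84.1 and 74.9 with Nutlin-3a in KO cells. The KO Nutlin-3a libraries were the highest, with a rise in KO cells (log2 fold change 0.58, SE 0.059, adjusted p = 2.5e-07), a higher level than in WT Nutlin-3a cells (log2 fold change 0.65, SE 0.06, adjusted p = 2.89e-08) and a more positive response than in WT cells (log2 fold change 0.49, SE 0.086, adjusted p = 0.000299). In WT cells the change was 0.09 (adjusted p = 0.251). A small excess in KO cells under DMSO (log2 fold change 0.15, SE 0.062, adjusted p = 0.0423) was lost without either WT DMSO or either KO DMSO library (0.12 to 0.18, adjusted p from 0.0739 to 0.209). ADM, the vasodilator adrenomedullin, stood at 20.8 and 20.3 CPM with DMSO and at 27.8 and 26.1 with Nutlin-3a in WT cells, against 32.6 and 28.9 with DMSO and 32.0 and 38.1 with Nutlin-3a in KO cells. It rose in WT cells (log2 fold change 0.39, SE 0.09, adjusted p = 0.00111) and was higher in KO cells under DMSO (log2 fold change 0.58, SE 0.088, adjusted p = 1.53e-05) and under Nutlin-3a (log2 fold change 0.38, SE 0.085, adjusted p = 0.000834), the latter at 0.25 without KO Nutlin-3a replicate 2 (adjusted p = 0.0335). The KO response was 0.19 (adjusted p = 0.0806), which passed without either WT Nutlin-3a library or KO Nutlin-3a replicate 1 (0.18 to 0.31, adjusted p from 0.0172 to 0.0456). ANKRD37, a small HIF target, ranged from 1.30 to 2.18 CPM and was called in none of the 5 comparisons.

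**Figure D5:**
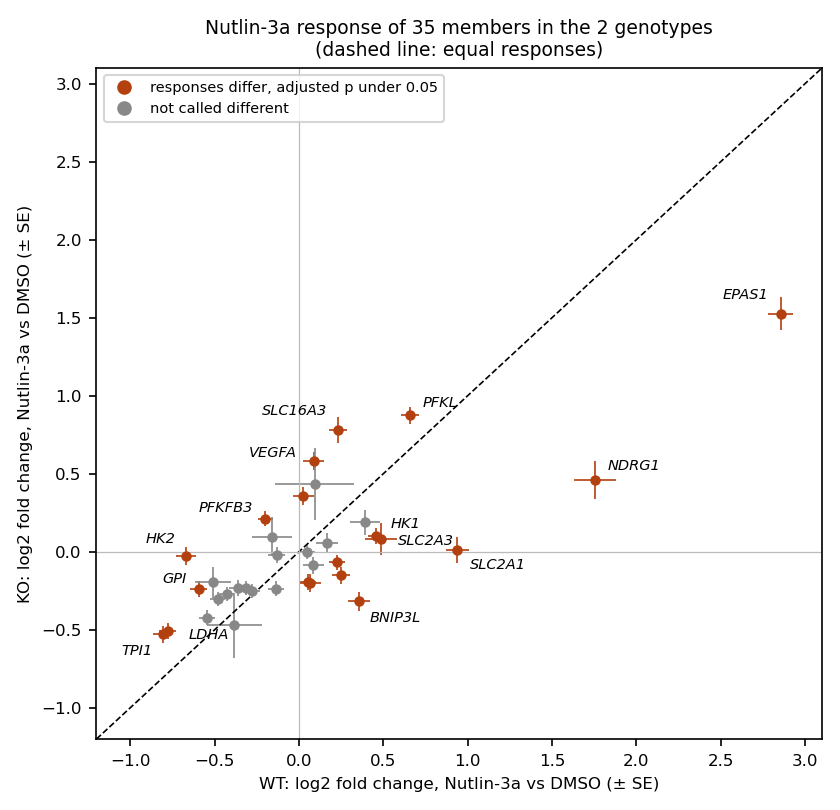
Log2 fold change with Nutlin-3a in KO cells (vertical axis) against that in WT cells (horizontal axis) for the 35 tested members, with bars of 1 SE; orange points are the 19 members whose responses differed with an adjusted p under 0.05. EPAS1, NDRG1 and SLC2A1 lie under the line of equal responses, and HK2, VEGFA and SLC16A3 above it.

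The same counts were made for other genes of these pathways that are not among the 36. Of 29 tested hypoxia targets, 18 rose and 9 fell with Nutlin-3a in WT cells, and 14 rose and 8 fell in KO cells, with medians of 0.53 and 0.24. The rises are 62.1% and 48.3% of the list, where 29.4% and 18.1% of all tested genes rose, and the falls 31% and 27.6%, where 29.2% and 20.6% fell. The rises included BHLHE40, a transcriptional repressor (2.03 in WT cells), and GBE1, the glycogen branching enzyme (1.66 in WT and 1.26 in KO cells). In KO cells BHLHE40 stood at 11.1 and 12.0 CPM with DMSO and at 24.7 and 22.3 with Nutlin-3a. The falls included ERO1L, an oxidase of the endoplasmic reticulum, and the transferrin receptor TFRC in WT cells (-0.73 and -0.66). In KO cells ERO1L stood at 25.7 and 24.5 CPM with DMSO and at 21.2 and 19.4 with Nutlin-3a. TFRC stood there at 203 and 209 and then at 180 and 186. HILPDA and P4HA1 fell in both genotypes (-0.47 and -0.42 in WT cells, -0.46 and -0.35 in KO cells). Between genotypes, 16 were lower and 8 higher in KO cells under DMSO, and 17 lower and 7 higher under Nutlin-3a. Under DMSO these are 55.2% and 27.6% of the list, where 30.1% and 31.4% of all tested genes were lower and higher. Under Nutlin-3a they are 58.6% and 24.1%, beside 30.4% and 32.7%. STC2, a secreted glycoprotein, was lower under both treatments (-1.82 and -1.64). STC1 was lower under DMSO (-1.37) and BHLHE40 under Nutlin-3a (-1.88). Under the other treatment too, the KO libraries of each lay under its WT libraries. WSB1 was higher under both (0.67 and 0.45). The responses differed for 18 of the 29, with 14 more negative in KO cells, KDM4B among them (-0.96), and 4 more positive, such as TFRC (0.49). The more negative responses are 48.3% of the list and the more positive 13.8%, beside 13.4% and 14.2% of all tested genes. All of the log2 changes named here by gene had an adjusted p under 0.05.

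Among 12 other genes of oxygen sensing and HIF regulation, 5 rose and 2 fell in WT cells, and 1 rose and 3 fell in KO cells. The rises are 41.7% and 8.33% of this list, where 29.4% and 18.1% of all tested genes rose. The falls are 16.7% and 25%, where 29.2% and 20.6% fell. In KO against WT cells, 5 were higher and 3 lower under DMSO (41.7% and 25%, where 31.4% and 30.1% of all tested genes were), and 3 were higher and 5 lower under Nutlin-3a (25% and 41.7%, where 32.7% and 30.4% were). ARNT2, the neural paralog of ARNT, stood at 5.13 and 4.18 CPM with DMSO and at 5.50 and 5.97 with Nutlin-3a in WT cells, against 52.3 and 56.0 with DMSO and 60.3 and 59.6 with Nutlin-3a in KO cells. Its KO level was 11.6-fold higher under DMSO (log2 fold change 3.54, SE 0.09, adjusted p = 2.04e-16) and 10.5-fold higher under Nutlin-3a (log2 fold change 3.39, SE 0.087, adjusted p = 2.11e-16). CITED2, which competes with HIF for its coactivators, rose in WT cells (log2 fold change 0.82, SE 0.057, adjusted p = 4.47e-10) with a less positive response in KO cells (log2 fold change -0.64, SE 0.078, adjusted p = 8.07e-06). VHL, the ligase subunit that binds hydroxylated HIF alpha, and EGLN2 were called in none of the 5 comparisons.

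In the branches around glycolysis, C12orf5, the older symbol of TIGAR, which lowers fructose 2,6-bisphosphate and is a known p53 target, stood at 31.2 and 30.0 CPM with DMSO and at 236 and 239.9 with Nutlin-3a in WT cells, against 22.9 and 23.3 with DMSO and 117 and 113 with Nutlin-3a in KO cells. It rose 7.77-fold in WT (log2 fold change 2.96, SE 0.051, adjusted p = 1.35e-18) and 4.99-fold in KO cells (log2 fold change 2.32, SE 0.052, adjusted p = 1.49e-16), and was lower in KO cells under DMSO (log2 fold change -0.41, SE 0.057, adjusted p = 6.18e-06) and under Nutlin-3a (log2 fold change -1.05, SE 0.045, adjusted p = 4.07e-13). With PFKFB2 (0.57 in WT and 0.42 in KO cells) it made up the 2 rises among 9 tested other glycolysis genes in each genotype. Those rises are 22.2% of that list in each genotype, beside 29.4% and 18.1% of all tested genes. ENO3, the muscle enolase, fell in WT cells (log2 fold change -0.70, SE 0.071, adjusted p = 9.78e-08). A further 14 genes act in pyruvate transport or belong to pyruvate dehydrogenase and its control. Of these, 7 fell and 2 rose in WT cells and 6 fell and 0 rose in KO cells. Under either treatment 7 were lower in KO cells. The falls are 50% and 42.9% of this list, beside 29.2% and 20.6% of all tested genes, and the lower KO levels 50%, beside 30.1% and 30.4%. DLAT, a pyruvate dehydrogenase subunit, fell in both genotypes (-0.54 and -0.33), and the phosphatase PDP2 was lower in KO cells under both treatments (-0.88 and -0.89). PDK4, a kinase like PDK1, stood at 1.97 and 1.93 CPM with DMSO and at 3.76 and 3.70 with Nutlin-3a in WT cells, against 4.81 and 4.33 with DMSO and 3.34 and 3.25 with Nutlin-3a in KO cells. It rose in WT cells (log2 fold change 0.93, SE 0.18, adjusted p = 0.000201), with a more negative response in KO cells (log2 fold change -1.40, SE 0.24, adjusted p = 0.000205), and it was higher in KO cells under DMSO (log2 fold change 1.22, SE 0.17, adjusted p = 5.51e-06). Of 7 pentose phosphate enzymes, 6 were lower in KO cells under DMSO and 5 under Nutlin-3a (85.7% and 71.4%, beside 30.1% and 30.4% of all tested genes), with 0 higher in either. TKT, a transketolase of that pathway, rose with Nutlin-3a in both genotypes (0.42 and 0.40). Each of the named differences in these lists passed the threshold.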

How the data were processed

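Poly(A) RNA of CHP212 cells was measured in 8 libraries, 2 in each of 4 groups taken from the sample titles, with strand-specific libraries per the labels' protocols. Per the submitters' processing notes, the build was GRCh37 (hg19), the aligners were TopHat2 2.1.1 and Bowtie2 2.2.9.0, and HTSeq 0.8.0, bcl2fastq, Picard 2.9.4, SAMtools 1.5 and FastQC 0.11.5 were also used. Which annotation and strand setting the counting used is not given in the sources used here. The authors deposited whole read counts per gene and RPKM values, which scale the counts to gene length and library total.

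From the counts, the 4 group means were fitted with edgeR 4.0.16 (R 4.3.3) to all 8 libraries (4 residual degrees of freedom) after filterByExpr, which removed 9490 genes, and TMM scaling. The robust quasi-likelihood F test was applied to 5 comparisons: the Nutlin-3a response of each genotype, KO against WT with DMSO and with Nutlin-3a, and the KO response minus the WT response. P values were adjusted by Benjamini-Hochberg across the 15879 tested genes. CPM uses TMM-scaled totals. Depth was 28390405 to 38010075 reads per library, and replicates differed by more than counting noise (chi-square per gene from 2.34 to 8.81), so each counted as a sample. Isoform shares were computed per library from RPKM, with no test, since 2 against 2 libraries cannot give an exact permutation p under the threshold.

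The members and the pathway lists were chosen with earlier results of these data known. Values in every library are given for members called with at least a 2-fold change in some comparison and for up to 5 called rises and falls per comparison; some others were added after their values were seen. Up to 2 called genes per pathway list and direction were named, by smallest p, and some of these were left out for length or are not reported here. VHL, EGLN2, ARNT2, CITED2, C12orf5 and PDK4 were given more room after their values were seen. Promoter windows came from RefSeq (GRCh38.p14).

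Alternatives were the DESeq2 1.42.0 Wald test, scaling by its size factors or by upper quartiles, a fit without the low-count filter, a replicate block, separate fits of the 4 libraries compared, limma 3.58.1 trend fits of RPKM on the log2 scale with a pseudocount of 0.1 or 1, thresholds of 0.01 and 0.1, leaving out each library, and, chosen after the data were seen, 3 libraries left out together. With 1 library left in a group, its spread was taken to be that of the others. The edgeR steps were tested on simulated data.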

Additional observations from a re-analysis of the deposited data

Results flagged for a closer look

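The Nutlin-3a response of 19 of the 35 tested members differed between genotypes by edgeR's test of the difference itself, given here as KO minus WT on the log2 scale. The response was more negative in KO cells for EPAS1 (-1.33), NDRG1 (-1.30), SLC2A1 (-0.93), BNIP3L (-0.68), SLC2A3 (-0.40), PFKP (-0.40), HK1 (-0.36), HIF1A (-0.29), EGLN3 (-0.27) and EGLN1 (-0.25). It was more positive in KO cells for HK2 (0.64), SLC16A3 (0.55), VEGFA (0.49), PFKFB3 (0.41), GPI (0.36), ENO2 (0.33), TPI1 (0.28), LDHA (0.27) and PFKL (0.21). Adjusted p values ran from 8.87e-07 for EPAS1 to 0.0465 for PFKL. BNIP3L, PFKP and PFKFB3 were called in opposite directions in the genotypes. The PFKP fall and the PFKFB3 rise in KO cells each lost the call in at least 1 fit with a single library left out. So did the differences of SLC2A3, EGLN3, EGLN1, TPI1 and PFKL.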

How the results depend on the processing

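Of 126 called member results, 109 had the same call in every alternative and 17 lost it in at least 1. No called member result changed sign. Counts of called members stayed within 1.5 times their value in all alternatives except 1: the number of members with a more positive response in KO cells was 14 in place of 9 without the 3 libraries that stood apart from their replicates. Over all tested genes, the threshold of 0.01 left 1437 more positive and 1307 more negative responses in place of 2253 and 2120, as fewer genes pass a stricter threshold. With single libraries left out, the members called higher and lower numbered 11 to 12 and 12 to 14 in the WT response, 5 to 9 and 11 to 14 in the KO response, 4 to 5 and 24 under DMSO, 7 to 8 and 22 to 24 under Nutlin-3a, and 7 to 13 and 7 to 10 for the difference.

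Same-numbered replicates did not deviate together (correlations from -0.023 to -0.004 over 15879 genes), and the labels do not say that they share a batch. With the replicate block, the members called higher and lower were 12 and 14 in the WT response, 7 and 14 in the KO response, 5 and 24 under DMSO, 7 and 24 under Nutlin-3a, and 9 and 10 for the difference, and no call of a named member changed.

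Among values that did not pass the test, the KO response of HK2 changed sign to 0.0028 with upper-quartile factors, 0.0069 and 0.0063 in the limma fits, and 0.0129 and 0.0157 without KO DMSO replicate 2 or KO Nutlin-3a replicate 1 (lowest -0.0728 without KO Nutlin-3a replicate 2). That of SLC2A1 turned to -0.0013 without the low-count filter, to -0.0637 and -0.0633 without KO DMSO replicate 2 or KO Nutlin-3a replicate 2, and to -0.0447 without those 3 libraries, with a highest value of 0.0822 without KO DMSO replicate 1. That of SLC2A3 turned to -0.0127 without KO Nutlin-3a replicate 1 and reached 0.1653 without replicate 2, and the GPI difference under Nutlin-3a turned to -0.0313 without WT Nutlin-3a replicate 2 and reached 0.1069 without replicate 1. The cause was not tested. Shares computed from CPM, which ignores gene length, moved in 41 of 44 cases. CA9 had at most 4 reads in a library, so no difference was detectable at this depth.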
